A study of Homo sapiens with 24 samples.

Results

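The genes described here are 9 components of the MHC class I presentation pathway, HLA-B, HLA-C, HLA-E, HLA-F, B2M, TAP1, TAP2, PSMB8 and PSMB9, measured in lymphoma cells after silencing of the forkhead transcription factor FOXP1. They were chosen by gene name, as the class I counterpart of the MHC class II genes on the same arrays, and every probe that the array files assign to those names was taken, which gave 19 of 41000 probes and 9 of 30142 genes. MHC class I molecules display peptides made inside the cell to cytotoxic T cells. Proteins are cut by the proteasome, the TAP transporter carries the peptides into the endoplasmic reticulum, and there a heavy chain encoded by an HLA gene folds around a peptide together with the light chain beta-2-microglobulin. Interferon signalling raises most of these genes in many cell types, and lymphomas of B cells often carry low surface class I.

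Each of 24 2-colour arrays set RNA of cells treated with a FOXP1 siRNA (siFOXP1_308 or siFOXP1_309) against RNA of the same line treated with a negative control duplex (siCtrl). All cells, controls included, were electroporated with 1 µM of a Stealth siRNA and harvested after 48 h, with 3 biological replicates for every line and siRNA. The lines are DB and K422, which represent the germinal centre B-cell subtype of diffuse large B-cell lymphoma (GCB-DLBCL), and HBL-1 and OCI-Ly3, which represent the activated B-cell subtype (ABC-DLBCL), so each subtype is known here from 2 established lines. The dyes were never swapped: Cy3 marked siFOXP1 RNA and Cy5 siCtrl RNA throughout, so dye effects on a probe and silencing cannot be told apart inside 1 line. DB and OCI-Ly3 were read in scan 1 and K422 and HBL-1 in scan 2. In bulk RNA, fewer cells of a type and less RNA per cell cannot be told apart. Ratios below are log2(siFOXP1/siCtrl), positive where RNA was higher on silencing, and each gene is represented by its brightest probe unless a probe is named. A gene was called where limma gave an adjusted p under 0.05 over all genes. These p-values measure the spread between replicate cultures, pooled for each gene over the groups of all lines in the same fit. They are not specific to 1 line, so replicates that vary widely in a line also weigh on calls in the others. For HLA-E the SE was 0.07 in each line, while the SD with siFOXP1_308 was 0.29 in DB and 0.09 in OCI-Ly3. The spread between lines is not measured by them.

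The heavy chain genes are close copies of each other, so the probes that measure them are shown first, with the longest stretch shared with a probe of another HLA class I gene, or of the array entries whose ratios ran closest to the members, in capitals. The lines below give the 60-base probes of the array design, 5′ to 3′, for the probe that stands for each heavy chain, for further probes of HLA-B, HLA-C and HLA-F that the results turn on, and for B2M and PSMB9.
HLA-B A_24_P113674: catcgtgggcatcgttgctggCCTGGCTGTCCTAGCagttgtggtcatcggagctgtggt
HLA-B A_24_P161933: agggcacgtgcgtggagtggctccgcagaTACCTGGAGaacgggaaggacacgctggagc
HLA-C A_23_P113716: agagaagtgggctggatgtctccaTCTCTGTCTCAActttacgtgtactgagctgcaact
HLA-C A_23_P70539: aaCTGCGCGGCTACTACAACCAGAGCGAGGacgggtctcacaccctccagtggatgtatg
HLA-C A_23_P95917: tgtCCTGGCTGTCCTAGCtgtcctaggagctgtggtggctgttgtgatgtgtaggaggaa
HLA-E A_24_P326082: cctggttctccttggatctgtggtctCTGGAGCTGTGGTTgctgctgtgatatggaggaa
HLA-F A_23_P314024: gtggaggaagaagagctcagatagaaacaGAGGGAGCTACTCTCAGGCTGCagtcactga
HLA-F A_23_P145264: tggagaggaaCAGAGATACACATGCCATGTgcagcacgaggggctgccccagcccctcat
B2M A_23_P37441: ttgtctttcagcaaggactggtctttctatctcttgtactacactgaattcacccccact
PSMB9 A_23_P111000: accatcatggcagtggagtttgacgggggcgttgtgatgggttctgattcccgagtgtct
The longest shared run was 28 bases, in HLA-C A_23_P70539, and the 15 bases in capitals in HLA-B A_24_P113674 also stand in HLA-C A_23_P95917. HLA-B A_24_P161933 shared no run above 9 bases, and the probes of B2M and PSMB9 are printed without capitals. On hg18, the build of the array files, the probes of HLA-B lie at chr6:31430895-31430954 (A_24_P113674) and chr6:31431929-31431988 (A_24_P161933) on the minus strand, those of HLA-E (A_24_P326082) at chr6:30567339-30567398 and of HLA-F (A_23_P314024) at chr6:29801300-29801941 on the plus strand, the last over a span of 642 bases. The files place HLA-C A_23_P95917 at chr6:31430871-31430936 and the brightest HLA-C probe, A_23_P113716, at chr6:31429768-31429819, among the HLA-B probes, whereas A_23_P70539 (chr6:31347078-31347387) and A_24_P298409 (chr6:31344612-31344671) lie in another place on the minus strand. The B2M probe lies at chr15:42795065-42795124 and the PSMB9 probe at chr6:32931896-32931955, both on the plus strand. No hg18 gene annotation was used here, so whether a probe lies in coding or untranslated sequence is not given. How far the heavy chain probes also take up RNA of the other heavy chains was not tested, and the values below are given by the names in the files.

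The windows before the start sites are shown for 3 heavy chains and for B2M, the light chain that pairs with them, since class I promoters are known to share regulatory boxes. The sequences are from RefSeq, build GRCh38.p14, the 250 bases before the annotated start in the direction of transcription, with matches on either strand to CCAAT, which reads ATTGG on the other strand, and to the interferon-element letters (2 copies of GAAA set 2 bases apart, or the reverse complement) in capitals.
HLA-B, chr6:31357180-31357429, minus strand: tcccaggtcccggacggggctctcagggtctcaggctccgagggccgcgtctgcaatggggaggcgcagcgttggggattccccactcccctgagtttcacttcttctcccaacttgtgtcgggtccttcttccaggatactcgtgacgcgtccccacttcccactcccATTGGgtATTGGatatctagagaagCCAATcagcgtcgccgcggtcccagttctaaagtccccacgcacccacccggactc
HLA-C, chr6:31272093-31272342, minus strand: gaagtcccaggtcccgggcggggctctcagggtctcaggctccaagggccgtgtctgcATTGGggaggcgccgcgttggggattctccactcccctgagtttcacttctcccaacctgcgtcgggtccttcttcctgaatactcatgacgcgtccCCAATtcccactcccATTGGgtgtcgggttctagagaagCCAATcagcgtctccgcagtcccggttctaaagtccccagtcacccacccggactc
HLA-F, chr6:29723184-29723433, plus strand: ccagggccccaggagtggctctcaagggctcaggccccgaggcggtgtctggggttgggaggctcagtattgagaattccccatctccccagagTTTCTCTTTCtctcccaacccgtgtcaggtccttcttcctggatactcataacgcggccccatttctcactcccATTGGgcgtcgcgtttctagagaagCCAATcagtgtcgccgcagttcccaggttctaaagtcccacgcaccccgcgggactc
B2M, chr15:44711267-44711516, plus strand: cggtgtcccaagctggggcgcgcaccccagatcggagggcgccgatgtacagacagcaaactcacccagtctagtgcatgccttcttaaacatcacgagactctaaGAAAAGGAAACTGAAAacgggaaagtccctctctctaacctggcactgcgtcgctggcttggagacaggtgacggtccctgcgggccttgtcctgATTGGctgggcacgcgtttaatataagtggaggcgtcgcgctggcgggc
CCAAT stood 3 times in the HLA-B window, 4 times in that of HLA-C, 2 times in that of HLA-F and 1 time in that of B2M. It also stood 1 time in the PSMB9 window and in 1 of 2 windows of TAP1, and in none of TAP2 or PSMB8, and 34.6% of 35116 promoter windows held it at least 1 time. The interferon-element letters stood in the windows of HLA-F (1 match) and B2M (2 matches that overlap), in 1 of 2 windows of TAP1 (2 matches), in that of TAP2 (1 match) and in 1 of 2 windows of PSMB8 (1 match), and in 3.57% of all windows. They stood in none of HLA-B, HLA-C or PSMB9. Only exact matches were counted, so interferon elements that depart from these letters were not searched. The forkhead letters GTAAACA, which read TGTTTAC on the other strand and were searched because FOXP1 is a forkhead factor, stood in no matched member window and in 3.42% of all windows. These shares were counted in windows of 300 bases that run 50 bases past the start. The RefSeq table paired no window with HLA-E.

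FOXP1 itself, the target of both siRNAs, had a ratio below 0 on all 24 arrays. Line means ran from -2.0 (DB) to -1.34 (K422), and siFOXP1_309 gave the lower value in each line, with groups that did not overlap. Between 57.8% and 65.2% of spots on an array were well above background. Precision is limited by how many arrays there are. The 6 B-cell markers were above background in siCtrl cells of every line. Of 4 germinal centre markers, MME (CD10) was above background in DB and K422 alone, MYBL1 had higher levels there (3.07 and 1.91) than in HBL-1 and OCI-Ly3 (-5.03 and -4.54), and BCL6 and LMO2 were above it in every line, with LMO2 highest in OCI-Ly3 (0.45). Of 4 activated B-cell markers, IRF4 and CCND2 were above background in HBL-1 and OCI-Ly3 alone, BATF in every line and highest in those lines, and PRDM1 on 6 of 6 arrays in K422 and OCI-Ly3, 5 in HBL-1 and 1 in DB. The T-cell receptor chains CD3D and CD3G were above background in K422 (levels of 2.29 and 3.34) and in no other line. CD3E was above it on 6 of 6 arrays in every line but DB (2 of 6), at levels of -3.42 and below, and CD2 on 3 or fewer in each line. EPCAM was above it in HBL-1 alone (0.25), and the part of these markers in the results was not tested. Their log2 ratios were -0.22 for CD3D and 0.21 for CD3G in K422, neither called, and EPCAM fell by 0.21 in HBL-1. The natural killer cell markers NKG7, GNLY and KLRD1 were not above background on any siCtrl array.

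In siCtrl-treated cells the 4 heavy chain transcripts were far lower in DB than in the other lines. Levels are log2 of the Cy5 signal over the 75th percentile of the array, and the 2 arrays of a replicate number were averaged, which gave 3 values per line. Where levels of lines from different scans are compared, line and scan cannot be told apart. The level of HLA-B, a classical heavy chain, was 0.48, -0.05 and 0.27 (DB), 6.23, 5.54 and 5.58 (K422), 6.43, 6.17 and 6.09 (HBL-1) and 7.35, 7.43 and 7.27 (OCI-Ly3). All 3 values of DB lay below all values of the other lines, and those of OCI-Ly3 above all others. Within scan 1, which held both DB and OCI-Ly3, HLA-B was 138-fold higher in OCI-Ly3 (log2 difference 7.11, limma adjusted p = 2.40e-10).

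**Figure D1:**
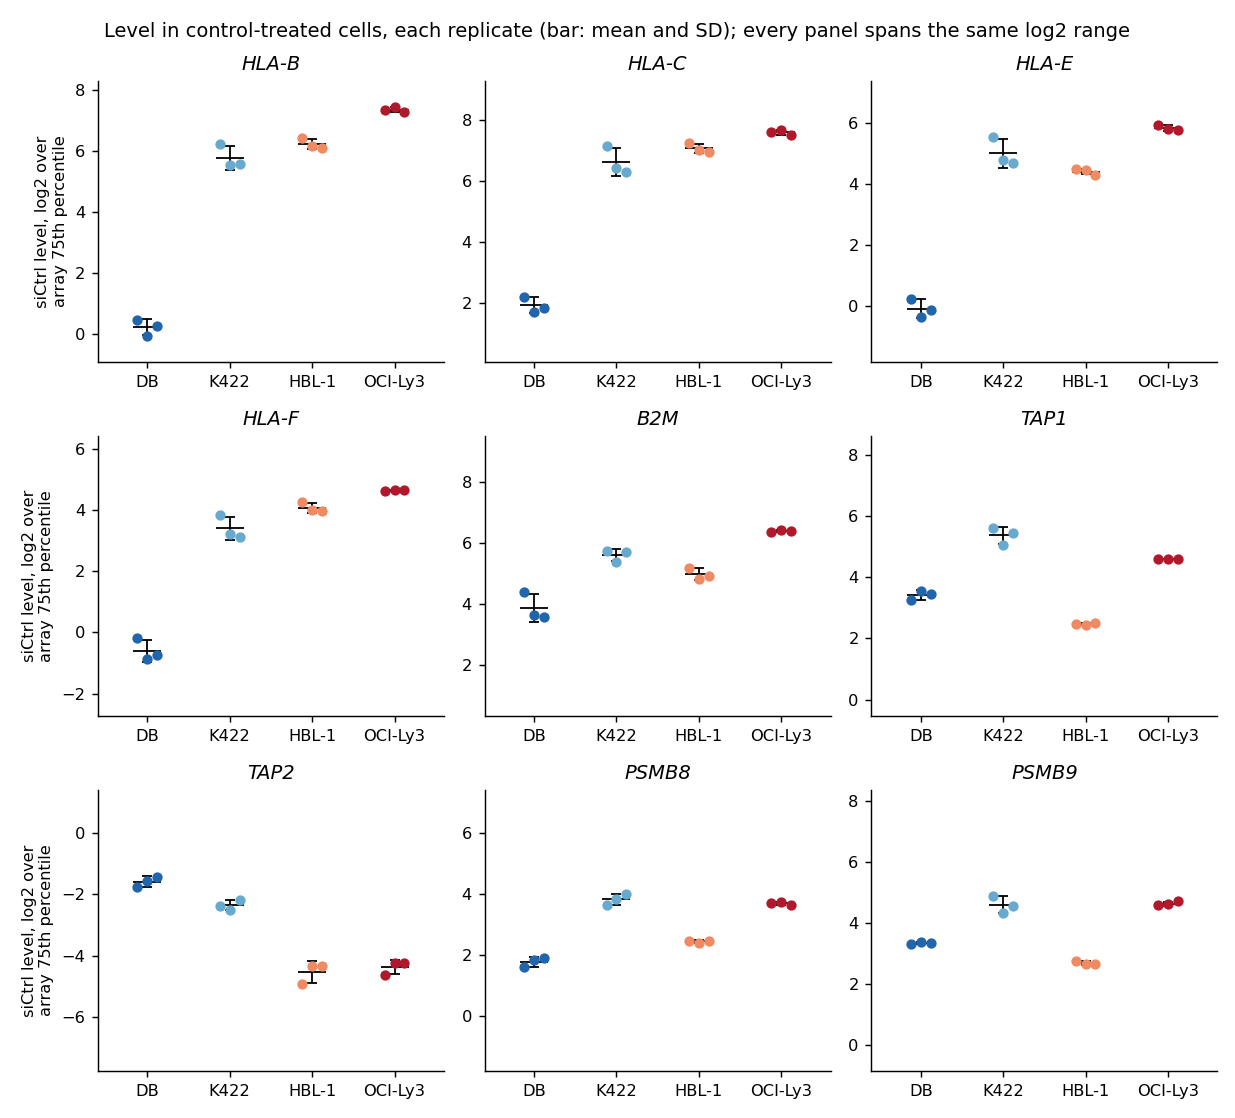
Level of each of the 9 genes in siCtrl-treated cells (y axis, log2 over the array's 75th percentile, every panel spanning the same log2 range) in the 4 lines (x axis), each point a replicate, with mean and SD. The 4 heavy chain panels show DB far below the other lines, whereas for TAP1 and PSMB9 the lowest line is HBL-1.

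The classical heavy chain HLA-C ranged from 1.72 to 2.22 in DB and from 6.30 to 7.67 in the other 3 lines. The level of HLA-E, which shows leader peptides of other class I chains to natural killer cells, ranged from -0.37 to 0.24 in DB and from 4.30 to 5.94 elsewhere. HLA-F, a non-classical heavy chain, ranged from -0.88 to -0.19 in DB and from 3.14 to 4.66 elsewhere. None of these groups overlapped with DB, and OCI-Ly3 exceeded DB by 50.9-fold for HLA-C, 60.5-fold for HLA-E and 37.9-fold for HLA-F. Among the other 3 lines, OCI-Ly3 was the highest for all 4 heavy chains, though K422 and HBL-1 were read in the other scan. OCI-Ly3 exceeded K422 by 2.96-fold for HLA-B, 1.98-fold for HLA-C, 1.77-fold for HLA-E and 2.36-fold for HLA-F. It exceeded HBL-1 by 2.17-fold for HLA-B (limma adjusted p = 0.000862) and 2.68-fold for HLA-E (0.000318). HLA-F was 1.61-fold higher in HBL-1 than in K422. For HLA-E the place of HBL-1 depended on the probe. The brightest probe had means of 5.01 (K422), 4.41 (HBL-1) and 5.83 (OCI-Ly3). HLA-E A_23_P30848 was at 3.24, 3.31 and 4.04 in that order, and A_32_P460973 at 4.35, 4.37 and 4.75. The neighbours in order of level that missed the threshold of 0.05 were HBL-1 and K422 for HLA-B (adjusted p = 0.103), HBL-1 with either of OCI-Ly3 (0.0651) and K422 (0.114) for HLA-C, K422 and HBL-1 for HLA-E (0.0527), and OCI-Ly3 and HBL-1 for HLA-F (0.0556). Replicate 1 of K422 was the highest of its line for all 4 heavy chains, and without it HLA-B (0.67, adjusted p = 0.00844) and HLA-C (0.72, adjusted p = 0.00493) were higher in HBL-1 than in K422. All 12 heavy chain probes were higher in OCI-Ly3 than in DB, by log2 differences of 5.24 to 7.99, and whether the probes match the HLA alleles of each line was not tested.

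The members outside the heavy chain group differed less between DB and the other lines, and their lowest line was not always DB. B2M, the light chain shared by all class I molecules, was at 4.38, 3.65 and 3.56 (DB), 5.74, 5.39 and 5.71 (K422), 5.18, 4.83 and 4.92 (HBL-1) and 6.36, 6.41 and 6.38 (OCI-Ly3). DB was thus the lowest line for B2M too, but OCI-Ly3 exceeded it by 5.74-fold (adjusted p = 1.53e-06), against 37.9-fold or more for each heavy chain. TAP1, a subunit of the peptide transporter, was at 3.25, 3.55 and 3.46 (DB), 5.62, 5.08 and 5.45 (K422), 2.49, 2.43 and 2.50 (HBL-1) and 4.59, 4.61 and 4.61 (OCI-Ly3). No line overlapped another for TAP1, and HBL-1 was the lowest, 7.52-fold below K422 within scan 2 (adjusted p = 2.86e-08). PSMB9, a catalytic subunit of the immunoproteasome, followed the same order at the low end, with 2.65 to 2.76 in HBL-1, 3.32 to 3.40 in DB, 4.33 to 4.89 in K422 and 4.6 to 4.71 in OCI-Ly3. PSMB8, another immunoproteasome subunit, ranged from 1.61 to 1.90 in DB, 2.41 to 2.49 in HBL-1, 3.65 to 3.73 in OCI-Ly3 and 3.66 to 4.02 in K422. K422 and OCI-Ly3 missed the threshold for PSMB8 (adjusted p = 0.353) or PSMB9 (0.815). TAP2, the partner of TAP1, had its highest level in DB (-1.75, -1.57 and -1.42) and was 6.97-fold lower in OCI-Ly3 by the brighter of its 2 probes, whereas the dimmer probe, above background in the Cy3 and Cy5 channels of 15 of 24 arrays, was 0.22 higher there.

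In OCI-Ly3 against DB, 8 of 9 members were higher and 1, TAP2, was lower, where 22.4% of all 30141 genes tested were higher and 19.2% lower. In HBL-1 against K422, within scan 2, 1 member, HLA-F, was higher (log2 difference 0.68) and 5 were lower, where 20.2% of genes were higher and 22.7% lower. The 5 were TAP1 (-2.91), TAP2 (-2.18), PSMB9 (-1.90), PSMB8 (-1.38) and B2M (-0.64). The call on HLA-F was lost without K422 replicate 2 or 3 or HBL-1 replicate 1 (adjusted p from 0.0868 to 0.0982), and that on B2M without K422 replicate 1 or 3 or HBL-1 replicate 2 or 3 (0.0778 to 0.0934). Scaling to the array median, under which the median of all genes moves since it was -4.27 in DB and -3.87 in OCI-Ly3, turned the split of all genes in OCI-Ly3 against DB from 6766 higher and 5776 lower to 4952 higher and 8178 lower, and it was 5303 and 7248 with normexp. Under these scalings HLA-B differed by 6.84 and 6.60 and no member changed direction. With normexp, OCI-Ly3 was no longer called above K422 for HLA-C (0.45, limma adjusted p = 0.103), HLA-E (0.30, 0.305) or B2M (0.47, 0.104). HLA-E was called lower in HBL-1 than in K422 with the array median (-0.71, limma adjusted p = 0.0107) and with normexp (-0.75, 0.0148). The array median also called OCI-Ly3 above HBL-1 for HLA-C (0.62, 0.0173) and HLA-F (0.65, 0.0157).

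Low levels in DB were seen over a wider group of HLA genes. Of the 7 other class I heavy chain genes, 5 were higher in OCI-Ly3 than in DB and 1 lower. HLA-G, HLA-H and HLA-J were among the 5. FCGRT, the neonatal Fc receptor chain, which pairs with B2M but presents no peptide, was the gene that was lower in OCI-Ly3 (-0.92, adjusted p = 0.00852). Of 18 class II genes, 16 were higher in OCI-Ly3 than in DB and 1 lower, and HLA-DRA, the class II alpha chain, was at -3.15 in DB and between 3.18 and 4.69 in the other lines. CIITA, the class II transactivator, was above background on 2 of 6 siCtrl arrays of DB and on 6 of 6 in every other line. NLRC5, the class I transactivator, was above background on all arrays of each line and differed far less, at -0.82 (DB), -0.33 (K422), -1.08 (HBL-1) and 0.12 (OCI-Ly3).

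On FOXP1 silencing the heavy chain transcripts rose in HBL-1 and, in the fit over all lines, were not called in the other lines. In HBL-1, 5 of 9 members rose and 1 fell, where 16.2% of 30138 genes rose and 15.0% fell. HLA-E had a lowest ratio of 0.33, a median of 0.36 and a highest of 0.64 over the 6 arrays of HBL-1, with a mean of 0.44 (SD 0.15, 1.36-fold, limma adjusted p = 7.92e-05). HLA-F ran from 0.24 to 0.60 with a median of 0.37 and a mean of 0.40 (SD 0.14, adjusted p = 0.000547). The ratio was above 0 on 6 of 6 arrays for both genes. HLA-B ran from 0.13 to 0.64 over 5 arrays, since 1 spot was an outlier and was left out of the fit, with a median of 0.43 and a fitted mean of 0.39 (SE 0.08, adjusted p = 0.00124). HLA-C ran from -0.00048 to 0.47, with a median of 0.39 and a mean of 0.33 (SD 0.17, adjusted p = 0.000972), and was above 0 on 5 of 6 arrays. No member reached an absolute log2 of 0.5 in any line, a size that 2.16% (DB), 4.44% (K422), 9.9% (HBL-1) and 4.42% (OCI-Ly3) of genes reached with a call. The B-cell markers moved on the same arrays: 4 of 6 rose in HBL-1 (median log2 0.45) and 3 of 6 in OCI-Ly3 (0.25), against 1 of 6 in K422 and 0 of 6 in DB, where 1 fell in each, and their part in the result was not tested. The 4 calls of the heavy chains held without any 1 replicate, but normexp with median centring and no loess, under which the 3015 brightest genes had a median of -0.34 in HBL-1, ended all 4 and gave -0.08 for HLA-B and -0.28 for HLA-C.

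**Figure D2:**
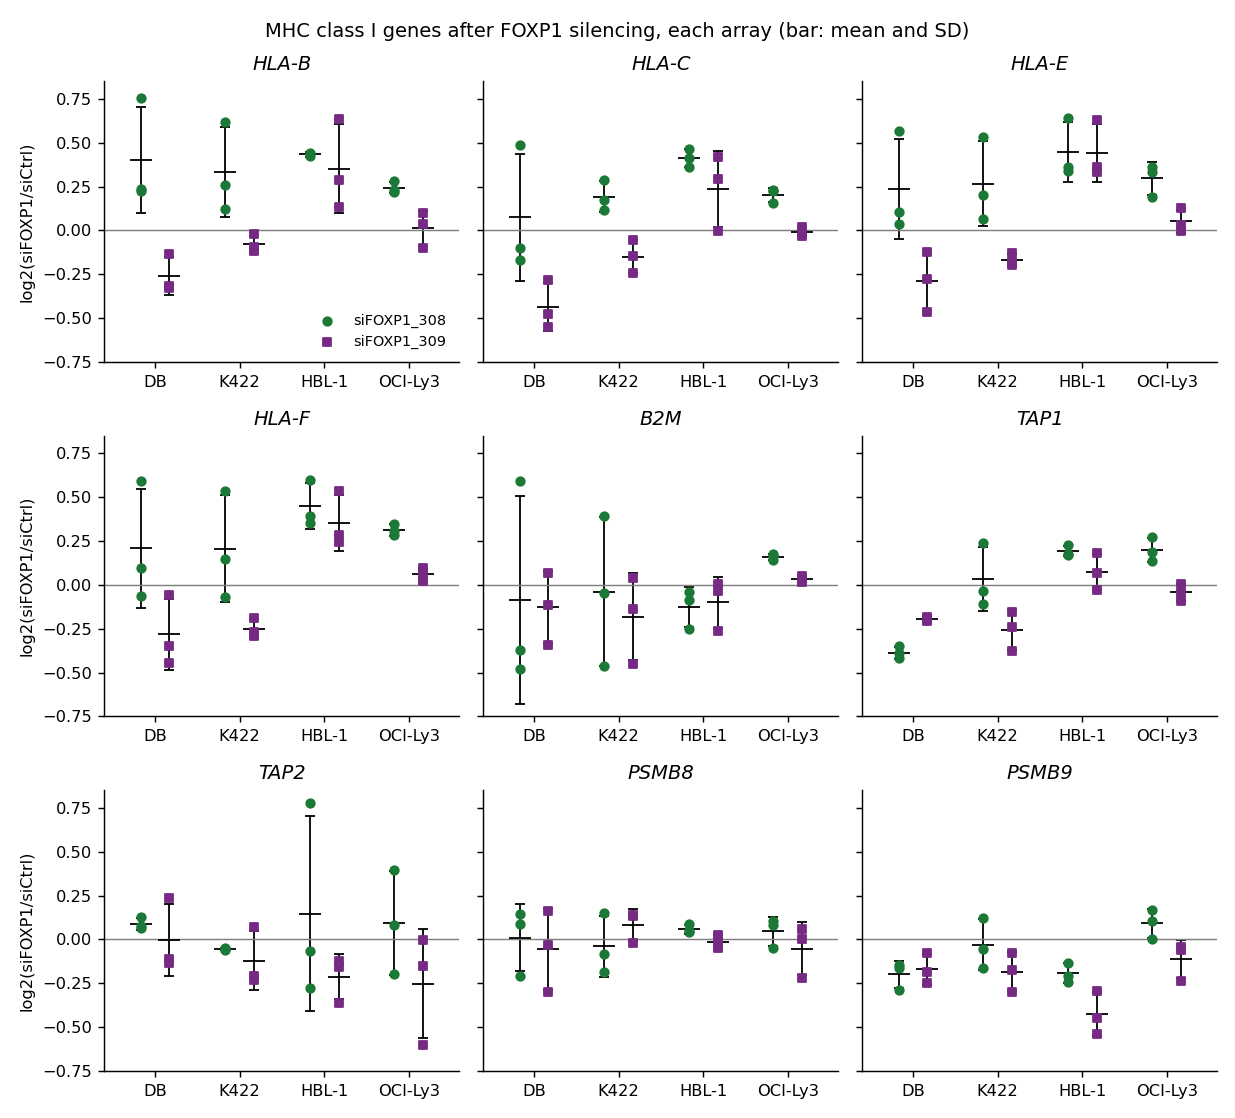
Log2(siFOXP1/siCtrl) of the 9 genes (y axis) in the 4 lines (x axis) on each array, circles for siFOXP1_308 and squares for siFOXP1_309, with mean and SD per siRNA. In HBL-1 the heavy chain arrays lie between -0.00048 and 0.64, while in DB and K422 the siFOXP1_309 arrays of these genes lie below 0.

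In OCI-Ly3 the heavy chain means were 0.13 for HLA-B, 0.10 for HLA-C, 0.17 for HLA-E and 0.19 for HLA-F, with adjusted p between 0.0981 and 0.369. HLA-F was above 0 on 6 of 6 arrays there, HLA-B and HLA-E on 5 of 6 and HLA-C on 4 of 6. OCI-Ly3 had 0 of 9 members called, where 9.65% of genes rose and 9.12% fell. This count moved to 5 where each line was fitted alone. HLA-B, HLA-C, HLA-E, HLA-F and B2M were then called higher in OCI-Ly3 (limma adjusted p from 0.0040 to 0.0487). The count moved to 4 with the mean over probes of a gene, to 3 with normexp and loess, and to between 0 and 2 as single replicates were left out. K422 had 0 members called as well (9.81% of genes rose and 9.59% fell), with heavy chain means from -0.02 for HLA-F to 0.13 for HLA-B. At an unadjusted p under 0.05, 9035 genes changed in K422 and 8808 in OCI-Ly3. DB had 0 members higher and 2 lower (6.17% of genes rose and 5.95% fell), and its heavy chain means ran from -0.18 for HLA-C to 0.07 for HLA-B. Without DB replicate 3, HLA-C fell by 0.32 (adjusted p = 0.000578) and B2M by 0.33 (0.0366) in DB, and HLA-E and HLA-F were called higher in OCI-Ly3.

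For HLA-B, the line means average siRNAs whose ratios lay apart in DB, K422 and OCI-Ly3 but not in HBL-1. No difference between the siRNAs was called in the fit without a block and with all genes kept. In DB, the ratio of HLA-B was 0.24, 0.22 and 0.75 with siFOXP1_308 and -0.31, -0.33 and -0.13 with siFOXP1_309. In K422 it was 0.62, 0.26 and 0.12 with siFOXP1_308 and -0.02, -0.12 and -0.10 with siFOXP1_309. The groups did not overlap in either line, and they lay on opposite sides of 0. In OCI-Ly3 the ratios of HLA-B were 0.23, 0.22 and 0.28 with siFOXP1_308 and 0.10, 0.04 and -0.10 with siFOXP1_309, again without overlap. HBL-1 had 0.44 and 0.43 with siFOXP1_308 and 0.13, 0.29 and 0.64 with siFOXP1_309, and there the groups overlapped.

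**Figure D3:**
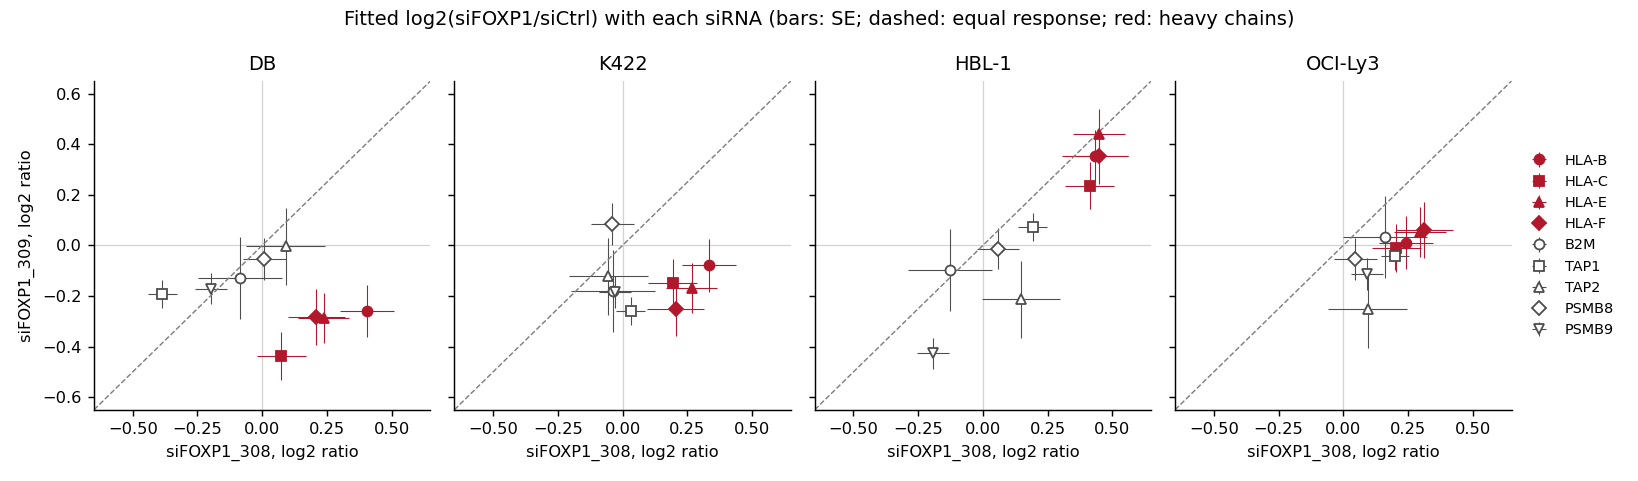
Fitted log2(siFOXP1/siCtrl) with siFOXP1_308 (x axis) and siFOXP1_309 (y axis) for the 9 genes in each line, bars showing SE, the dashed line equal response and red symbols the heavy chains. The heavy chains lie right of 0 and below 0 in DB and K422, near 0 on the y axis in OCI-Ly3 and close to the dashed line in HBL-1.

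The heavy chains moved together in this respect. Taking the 4 genes and 3 replicates as 12 values, 9 of 12 were above 0 with siFOXP1_308 and 0 of 12 with siFOXP1_309 in DB, and 11 of 12 and 0 of 12 in K422. In OCI-Ly3, 12 of 12 and 8 of 12 were above 0, and in HBL-1 11 of 11 and 11 of 12. These values share arrays, and the 4 genes share sequence, so they are no independent counts. All siFOXP1_309 arrays lay below all siFOXP1_308 arrays for 3 of 4 heavy chains in DB, all 4 in K422 and OCI-Ly3, and 0 of 4 in HBL-1. Over all genes the same held for 4.68% (DB), 5.54% (K422), 5.76% (OCI-Ly3) and 5.94% (HBL-1). The fitted difference of siFOXP1_309 from siFOXP1_308 ran from -0.66 (HLA-B) to -0.49 (HLA-F) in DB, from -0.46 to -0.34 in K422 and from -0.25 to -0.21 in OCI-Ly3. In the fit without a block and with all genes kept, none of the 36 differences of the 9 members passed the threshold after adjustment. Over all genes 0.395% in DB, 0.189% in K422 and 0.216% in each of HBL-1 and OCI-Ly3 did. The lowest adjusted p was 0.0637, for HLA-B in DB. That difference passed in limma with the slide as a block (adjusted p = 0.0274). It also passed among genes above background in 1 channel (0.0453) or in both channels (0.0399). In DB the arrays of a replicate number deviated together in all 3 pairs, with correlations of 0.165 to 0.284 over all genes. They were 0.309 to 0.535 over the 17165 genes above background in both channels of at least 50% of arrays. With the replicate number as a block HLA-B (-0.66, adjusted p = 0.0130), HLA-C (-0.51, 0.0324) and HLA-E (-0.52, 0.0352) passed in DB. siFOXP1_309 was the siRNA that lowered FOXP1 further in all 4 lines, and its part in this difference was not tested. DB replicate 3 with siFOXP1_308 was the highest array of its line for all 4 heavy chains (0.49 to 0.75) and for B2M (0.59), and K422 replicate 1 with siFOXP1_308 was highest in its line (0.29 to 0.62).

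Taken by siRNA against 0, 16 of the 72 combinations of member, line and siRNA were called, 10 of them in HBL-1. For siFOXP1_308 in HBL-1, HLA-B, HLA-C, HLA-E, HLA-F and TAP1 rose, by 0.43, 0.41, 0.45, 0.45 and 0.19, and PSMB9 fell by 0.19, where 9.27% of genes rose and 7.55% fell. For siFOXP1_309 in HBL-1, HLA-B, HLA-E and HLA-F rose, by 0.35, 0.44 and 0.35, and PSMB9 fell by 0.43, where 12.3% of genes rose and 11.6% fell. Single replicates decided several of these calls: without HBL-1 replicate 2 or 3 the count of 16 fell to 10, and with siFOXP1_308 in HBL-1 HLA-C alone of the 6 was called without each replicate in turn. With siFOXP1_309 in HBL-1 PSMB9 alone of the 4 was. In DB, HLA-B rose by 0.40 and TAP1 fell by 0.39 with siFOXP1_308 (4.65% of genes rose and 4.27% fell), and HLA-C fell by 0.44 with siFOXP1_309 (1.73% rose and 1.97% fell). The rise of HLA-B in DB was lost without DB replicate 3, and the fall of HLA-C without replicate 1 or 2. In K422, HLA-B rose by 0.33 with siFOXP1_308 (6.93% and 6.27%), a call lost under 9 of 22 alternatives, among them K422 without replicate 1 or 2, and TAP1 fell by 0.26 with siFOXP1_309 (3.42% and 3.58%). In OCI-Ly3, TAP1 rose by 0.20 with siFOXP1_308 (6.13% and 5.71%), which was lost without any 1 of its replicates, and no member was called with siFOXP1_309 (4.04% and 3.2%).

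By its brighter probe, B2M was called in no line. That probe had lowest, median and highest ratios of -0.48, -0.23 and 0.59 (DB), -0.46, -0.09 and 0.39 (K422), -0.26, -0.06 and 0.0040 (HBL-1) and 0.019, 0.098 and 0.17 (OCI-Ly3). The means were -0.11, -0.11, -0.11 and 0.10 in that order, with adjusted p between 0.567 and 0.692. In OCI-Ly3 B2M was above 0 on 6 of 6 arrays. The dimmer B2M probe, A_24_P740662, gave another picture, with falls of 0.73 in K422 (adjusted p = 0.000609 over all probes) and 0.67 in HBL-1 (0.000575), so the probes of this gene disagree. With normexp and loess the dimmer probe fell by 0.48 in K422 and by 0.22 in HBL-1 (adjusted p = 0.0191). It passed background in the Cy3 and Cy5 channels of 22 of 24 arrays and lies at chr15:42794602-42794661 on hg18, before the brighter probe.

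The transporter and immunoproteasome genes showed smaller changes in several directions. TAP1 fell in DB, with lowest, median and highest ratios of -0.42, -0.28 and -0.18 and a mean of -0.29 (SD 0.11, n = 6, limma adjusted p = 0.000116), below 0 on 6 of 6 arrays. Normexp with median centring (adjusted p = 0.327) and the methods' t-test (0.0709) ended this call. In HBL-1 TAP1 rose by 0.13 (adjusted p = 0.0145), from -0.03 to 0.23, above 0 on 5 of 6 arrays, and this call was lost without HBL-1 replicate 2 or 3. In DB the siFOXP1_308 arrays of TAP1 (-0.42, -0.35 and -0.39) lay below those of siFOXP1_309 (-0.18, -0.20 and -0.20), the opposite order to the heavy chains. TAP1 was -0.11 in K422 (adjusted p = 0.0530) and 0.08 in OCI-Ly3 (0.195), and without K422 replicate 1 it fell by 0.13 in K422 (0.0147). PSMB9 fell in HBL-1, with lowest, median and highest ratios of -0.54, -0.27 and -0.13 and a mean of -0.31 (SD 0.15, adjusted p = 2.54e-05), below 0 on 6 of 6 arrays. This call over both siRNAs held under all 25 alternatives, whereas the fall with siFOXP1_308 alone was lost under 7 of 22, the deposited matrix among them. In DB PSMB9 fell by 0.18 (adjusted p = 0.00944, 6 of 6 arrays below 0), a call lost under 7 of 25 alternatives: without DB replicate 1 or 2, with either normexp setting, with replicates averaged, with each line alone and with the methods' t-test (adjusted p from 0.0536 to 0.592). PSMB8, which lies beside TAP1 and PSMB9 in the MHC region, had means between -0.02 and 0.02 in the 4 lines, and none was called. TAP2 had means between -0.09 and 0.04, none called, and was dim, with siCtrl levels of -1.42 and below.

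The single probes showed which parts of this rest on the choice of probe. In HBL-1, 12 of 12 heavy chain probes rose, by 0.30 to 0.55, where 15.8% of 40996 probes rose and 15.5% fell. In DB none of the 12 was called, where 6.22% of probes rose and 6.16% fell. In OCI-Ly3, 5 of 12 rose, where 9.92% of probes rose and 9.55% fell. They were HLA-B A_23_P125107 (0.28) and A_24_P161933 (0.29), HLA-C A_23_P70539 (0.36), HLA-E A_23_P30848 (0.27) and HLA-F A_23_P145264 (0.31), while the brightest probe of each of these genes did not pass. In K422, 1 of 12 rose, HLA-C A_23_P70539 (0.21, adjusted p = 0.0310), where 9.69% of probes rose and 9.42% fell. HLA-C A_23_P113716, the probe that stands for the gene, gave -0.18 in DB and 0.10 in OCI-Ly3, against 0.14 and 0.36 for A_23_P70539.

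**Figure D4:**
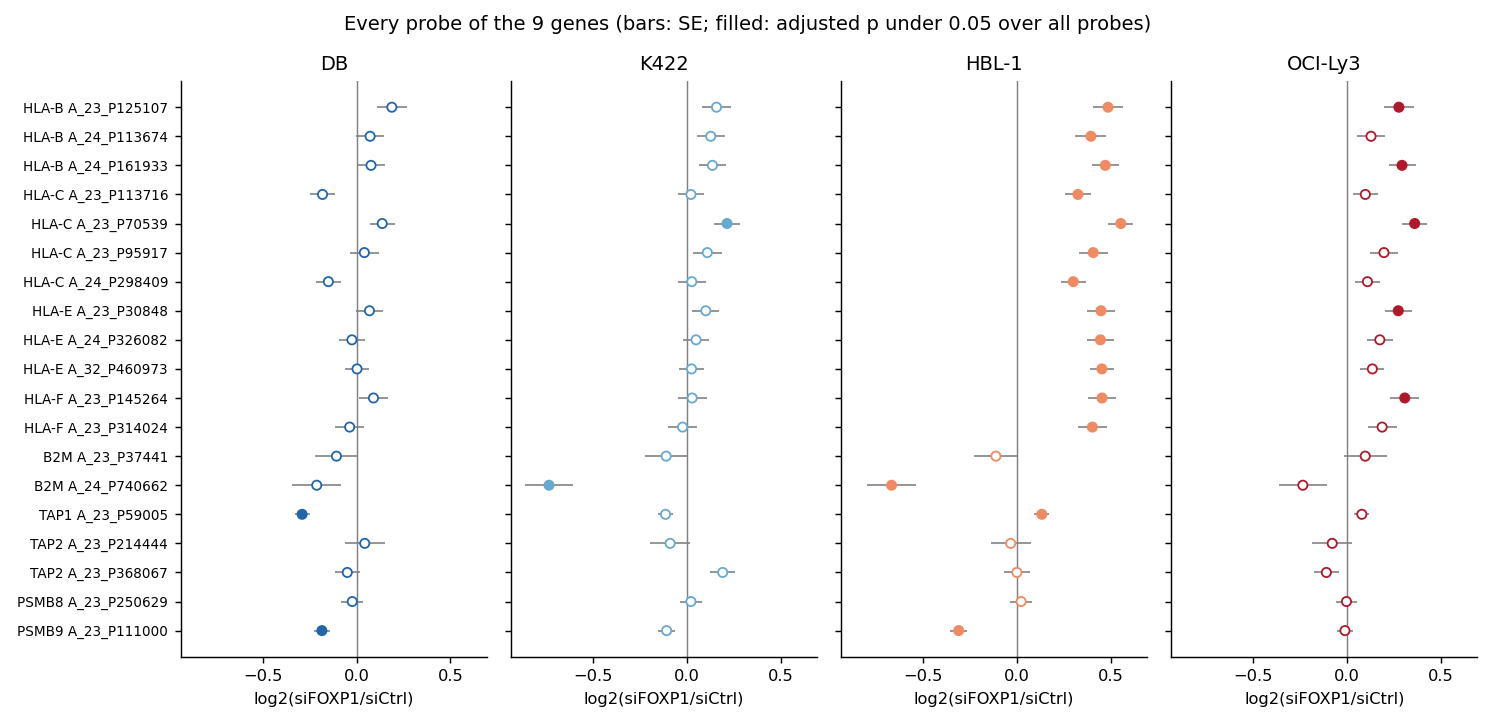
Log2(siFOXP1/siCtrl) of each of the 19 probes (x axis, mean of both siRNAs, bars SE) by line, filled where the adjusted p over all probes was under 0.05. All 12 heavy chain probes are filled and right of 0 in HBL-1, and the B2M probes lie apart in K422 and HBL-1.

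The study set ABC-DLBCL lines against GCB-DLBCL lines. The difference of the mean ratios, HBL-1 and OCI-Ly3 minus DB and K422, was above 0 for HLA-C (0.29, SE 0.07, limma adjusted p = 0.0107), HLA-E (0.30, 0.07, 0.0125), HLA-F (0.32, 0.08, 0.0138) and TAP1 (0.31, 0.04, 7.73e-05). These 4 of 9 members were higher and none was lower, where 4.52% of genes were higher and 3.77% lower. HLA-B was at 0.16 (adjusted p = 0.241), and B2M at 0.10, PSMB8 at 0.01, PSMB9 at -0.01 and TAP2 at -0.03 were not called. For HLA-B and HLA-C the call depended on the probe. In the fit over all probes the subtype difference was called for HLA-B A_24_P161933 (0.27, limma adjusted p = 0.0241). It was not called for HLA-B A_23_P125107 (0.21, 0.123) or HLA-C A_23_P95917 (0.23, 0.0825). Within scan 1, OCI-Ly3 minus DB was called for TAP1 alone among the members (0.37, adjusted p = 0.000951, where 1.86% of genes were higher and 0.976% lower), and HLA-C, HLA-E and HLA-F were at 0.28, 0.20 and 0.22. Within scan 2, HBL-1 minus K422 was called higher for HLA-E (0.40, adjusted p = 0.0160), HLA-F (0.42, 0.0190) and TAP1 (0.25, 0.00837) and lower for PSMB9 (-0.20, 0.0449), where 5.32% of genes were higher and 4.6% lower. Without DB replicate 3, HLA-C (0.42), HLA-E (0.32) and HLA-F (0.38) were called in scan 1 as well. HLA-E and HLA-F lost the call of scan 2 without K422 replicate 2 or 3 or HBL-1 replicate 1 or 3, PSMB9 lost it under 12 of 22 alternatives, and TAP1 kept its call in all these comparisons except under normexp with median centring.

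Beside the class I genes, the class II genes, which present peptides to helper T cells, were counted in the same fits, for which the shares of all genes that rose and fell are given above for each line. Of 18 class II genes, CD74 included, 10 rose and 0 fell in HBL-1 (median log2 0.35). OCI-Ly3 had 16 higher and 0 lower (0.56), K422 had 0 and 3 (-0.13) and DB 1 and 3 (-0.10). Over the 4 class I heavy chains the median was 0.40 (HBL-1), 0.15 (OCI-Ly3), 0.04 (K422) and -0.03 (DB), against 0 over all genes in each line. In OCI-Ly3, 11 of the class II genes rose by at least 0.5, among them HLA-DQB1 (0.90), HLA-DQB2 (0.92), HLA-DMB (0.73) and the invariant chain CD74 (0.73), and no class I member did. In HBL-1 6 did, with HLA-DOB (1.16) and CD74 (0.95) the furthest from 0. Of the 3 called lower in DB, HLA-DQB1 was above background on 0 of 6 siCtrl arrays of DB and HLA-DQA2 on 3 of 6. The counts in DB and K422 were 3 of 18 lower where 5.95% and 9.59% of all genes fell, and no difference between class I and class II was tested. Both sets of genes were measured on the same arrays.

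**Figure D5:**
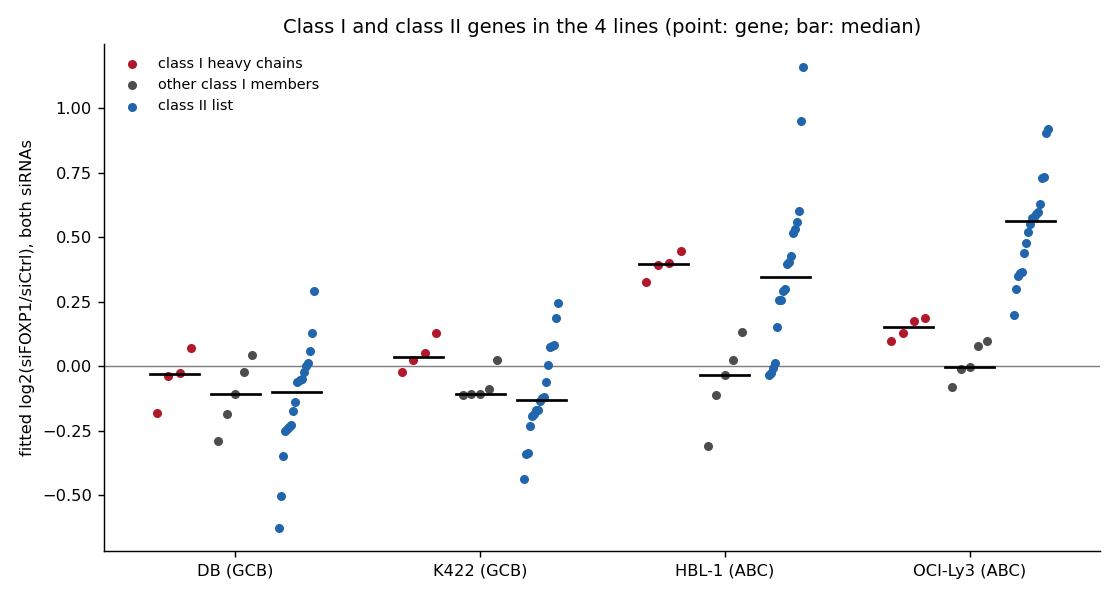
Fitted log2(siFOXP1/siCtrl) over both siRNAs (y axis) of the 4 heavy chains, the other 5 class I members and the 18 class II genes in each line (x axis), each point a gene and each bar a median. In HBL-1 the heavy chain median is 0.40 and the class II median 0.35, whereas in OCI-Ly3 they are 0.15 and 0.56.

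Other genes of the class I pathway were counted from lists. The counts stand beside shares of all genes, rising and falling, of 6.17% and 5.95% (DB), 9.81% and 9.59% (K422), 16.2% and 15.0% (HBL-1) and 9.65% and 9.12% (OCI-Ly3), so that 1 gene of 7 is near the background. Of 7 further class I-like heavy chain genes, 5 rose in HBL-1, 3 in OCI-Ly3, 2 in K422 and 0 in DB, and none fell. In HBL-1, HLA-H, a class I pseudogene, rose by 0.56 and FCGRT by 0.70. Of 7 peptide loading and trimming genes, 3 rose and 1 fell in HBL-1, 2 rose and 1 fell in OCI-Ly3, 1 rose and 1 fell in K422, and 1 rose in DB. ERAP2, which trims peptides in the endoplasmic reticulum, rose in all 4 lines, by 0.20 (DB), 0.40 (K422), 0.42 (HBL-1) and 0.37 (OCI-Ly3), and the chaperone CANX fell in HBL-1 (-0.20), K422 (-0.29) and OCI-Ly3 (-0.10). TAPBPL, a relative of the loading factor tapasin, rose by 0.51 in HBL-1 (adjusted p = 0.00246), and tapasin itself, TAPBP, was at 0.15 (0.133). Of 7 other proteasome genes, 2 rose and 4 fell in HBL-1, 1 rose and 1 fell in DB, and 1 rose in each of K422 and OCI-Ly3. The gene that rose in every line was PSMB10, the third immunoproteasome subunit, which rose by 0.16 (DB), 0.37 (K422), 0.20 (HBL-1) and 0.17 (OCI-Ly3), while PSMB9 fell in DB and HBL-1 and PSMB8 was not called. PSMB5 (-0.19) and PSMB7 (-0.15), constitutive catalytic subunits, and the activator subunits PSME1 (-0.14) and PSME2 (-0.22) fell in HBL-1, PSME1 also in DB (-0.18), and PSME3 rose in HBL-1 (0.31). Of 11 regulators of class I and II transcription, 2 rose and 3 fell in HBL-1, 2 rose and 2 fell in K422, 1 rose and 1 fell in OCI-Ly3, and 1 fell in DB. RFXAP, a subunit of the RFX complex that binds class I and II promoters, fell in all 4 lines, by 0.55 (DB), 0.46 (K422), 0.52 (HBL-1) and 0.59 (OCI-Ly3). NLRC5 fell in K422 (-0.37, adjusted p = 0.000323) and was at -0.11 in HBL-1 (0.221).

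Over the 24 arrays, the entries whose ratios ran most closely with the mean of the 9 members, HLA genes left out, were unnamed or cDNA entries. Among 12883 genes above background in each channel of every array, these were CR594843 (Pearson r = 0.94), A_23_P125109 (0.92), A_24_P101771 (0.92), NP101106 (0.89) and BC035647 (0.89), and the points are the arrays of 4 lines with 2 siRNAs. All 5 rose in HBL-1, by 0.40 to 0.51, and 3 of them in OCI-Ly3. They were picked by their correlation with the members on these same arrays, so these rises are no separate evidence. Their probes were compared with the heavy chain probes for shared bases, and the runs that unrelated probes share were not counted. The longest runs were 22 bases for A_23_P125109 (with HLA-F A_23_P314024), 14 for BC035647 and 11 for NP101106 (both with HLA-E A_24_P326082), 9 for A_24_P101771 (with HLA-B A_24_P161933) and 8 for CR594843 (with HLA-C A_24_P298409). The array files describe NP101106 as a putative MHC class I protein, and how far these probes and those of the members take up the same RNA was not tested.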

How the data were processed

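The authors hybridised RNA of siFOXP1-treated (Cy3) and siCtrl-treated (Cy5) cells of 4 lines to 24 Agilent arrays, extracted with Feature Extraction 10.5.1.1 (scan 1) and 10.7.3.1 (scan 2). Per the file headers, the deposited log10 ratio of Cy5 over Cy3 was made by subtracting background and normalizing the dyes by a linear and a loess step, and the deposited intensity of each channel went through the same steps. The authors also deposited a matrix of log2 values, used here as an alternative. Control spots (1639 of 45015 per array) and outlier spots (113 to 469) were dropped, replicate spots averaged, and ratios turned to log2(siFOXP1/siCtrl).

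R 4.3.3 with limma 3.58.1 was fitted to the 24 arrays with 8 groups (4 lines by 2 siRNAs), and to 12 siCtrl levels, with Benjamini-Hochberg adjustment over all genes. On simulated data for 29561 genes, 200 were changed by 0.5 in every line, and 54% to 58% of them were recovered in a line. The simulated noise was independent between arrays. In the data a larger share of genes was called, with 6.17% (DB) to 16.2% (HBL-1) rising, so these shares are not the power of the fits. The members and lists were chosen with earlier results of these data known. Named beside the members are FOXP1, list genes with an adjusted p under 0.05 and an absolute log2 of at least 0.5 in a line, list counts, and the 5 genes most like the mean of the members. ERAP2, CANX, PSMB10, NLRC5, TAPBP, the other PSMB and PSME genes, the markers, and the levels of genes that are no members were picked after their values were seen.

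The alternatives tried were a normexp background (offset 50) followed by loess, the same followed by centring on the median, use of the deposited log2 matrix, removal of dim probes or of saturated spots, the mean over probes, a block for replicate or slide, a fit per line, the methods' t-test, and leaving out replicates.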

Additional observations from a re-analysis of the deposited data

Results flagged for a closer look

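Over the 36 combinations of member and line, 2 held an array far from the other 5 of its line, where chance alone gives about 1 in 20. HLA-C in HBL-1 was at -0.00048 on replicate 1 of siFOXP1_309, against 0.29 to 0.47 on the other arrays. TAP2 in HBL-1 was at 0.78 on replicate 1 of siFOXP1_308, and its other 5 arrays lay below 0.

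Of 27 tests of a difference between subtypes, or between lines of a scan, in the response of a member, 9 passed. Of 36 tests between the siRNAs of a line none did in the fit without a block and with all genes kept. Between subtypes, ABC-DLBCL minus GCB-DLBCL, these were HLA-C (0.29), HLA-E (0.30), HLA-F (0.32) and TAP1 (0.31). Within scan 1, OCI-Ly3 minus DB passed for TAP1 (0.37), which fell in DB and was not called in OCI-Ly3. Within scan 2, HBL-1 minus K422 passed for HLA-E (0.40), HLA-F (0.42), TAP1 (0.25) and PSMB9 (-0.20). Each used limma with adjustment over all genes.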

How the results depend on the processing

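Normexp with median centring and no loess changed the most: members called were 0 in DB, 1 in K422 and 2 in HBL-1, 1 over the siRNAs, 0 between subtypes, 0 for OCI-Ly3 minus DB, 0 for HBL-1 minus K422 and 16 of the class II calls in place of 33. HLA-C fell by 0.50 in K422 under it, HBL-1 gave -0.0845 for HLA-B, -0.28 for HLA-C and -0.12 for TAP1, and by siRNA it gave -0.14 for HLA-B in K422 and -0.23 for HLA-C, -0.0322 for TAP1 (siFOXP1_308) and -0.20 for HLA-B (siFOXP1_309) in HBL-1, and -0.11 for TAP1 in OCI-Ly3. The 3015 brightest genes, which hold 8 of 9 members, then had medians of -0.18 (DB), -0.28 (K422), -0.34 (HBL-1) and -0.14 (OCI-Ly3). All genes split there into 21 higher and 62 lower in DB, 187 and 742 in K422, 739 and 4021 in HBL-1 and 391 and 244 in OCI-Ly3, and in the deposited matrix, whose median over all genes was -0.09, -0.07, -0.11 and -0.07, into 2278 and 7050, 2986 and 6058, 4865 and 7194 and 3002 and 6053.

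Members called in DB (2) were 1 with normexp and loess, 1 with replicates averaged, 1 with each line alone and 0 with the t-test of the methods. K422 (0) gave 1 with the mean over probes, and OCI-Ly3 (0) gave 3 with normexp and loess, 4 with the mean over probes and 5 with each line alone. Without single replicates the counts ran from 1 to 4 in DB, 0 to 1 in K422, 5 to 6 in HBL-1 and 0 to 2 in OCI-Ly3, 10 to 23 over the siRNAs (16), 0 to 0 between siRNAs, 4 to 5 between subtypes, 1 to 4 for OCI-Ly3 minus DB, 1 to 5 for HBL-1 minus K422 and 45 to 49 over the siCtrl levels (46).

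Over the 4 lines replicate numbers were not taken as pairing arrays. Over all genes the correlation of deviations within a number ran from 0.0468 to 0.284 and not every pair exceeded 0.1, though all 3 of DB did. Over the 17165 genes above background in both channels of at least 50% of arrays the correlations were higher. They ran from 0.190 to 0.535 in DB, K422 and HBL-1 and from 0.0906 to 0.193 in OCI-Ly3. The fit without a block thus takes as independent arrays that deviated together in part. With the replicate number as a block, the differences between siRNAs called went from 0 to 3 (HLA-B, HLA-C and HLA-E in DB), and they were 1 with the slide as a block, 1 with probes above background in 1 channel and 1 in both channels. Dim signal limits TAP2, and the other 8 members were among the 3015 brightest genes. The cause of the other changes was not tested.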
